A study of Danio rerio with 6 samples.

Results

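Caspases and the Bcl2 family are the core proteins of apoptosis, and their transcripts were followed here in zebrafish embryos labelled as Ovo1 morphants and in controls. The 16 probe sets described are those whose single gene symbol starts with casp, bcl2, mcl1 or bax, together with bbc3. They represent 13 genes, out of 15502 probe sets and 8793 named genes on the array. The genes casp8, bbc3 and baxa were picked because their rise in morphants was already known, so their values are given as a description with no test. The other 13 probe sets, of 10 genes, entered by name alone. Of 33 zebrafish genes with such names in RefSeq, the other 20 had no probe set under their single symbol and were not analysed here. The 33 include 19 caspase genes, of which 5 had a probe set.

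Total RNA of whole AB embryos at 12 h after fertilisation, the stage of 6 somites, was hybridised to Affymetrix zebrafish arrays, 1 array per sample. The 3 Ovo1 morphant samples were injected with a morpholino (an antisense oligomer that blocks an RNA) against Ovo1, a zinc finger transcription factor, and their labels name the reporter transgene sox10(7.2):gfp. The 3 control samples are labelled wild type, although the design text calls them transgenic too, and no label says whether they were injected. The morpholino, the injection and the transgene may thus differ together between the groups, and they cannot be told apart here. The number of embryos per sample is not stated. No label gives the replicates separate clutches either, so the p-values rest on a spread between samples that may be technical.

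In the mitochondrial route to apoptosis, BH3-only proteins such as Puma, the product of bbc3, bind the protective members Bcl2l1, Bcl2l10 and Mcl1 and set Bax free to open the outer mitochondrial membrane. Cytochrome c then joins Apaf1 to activate the initiator caspase-9. In the death receptor route, Fadd brings caspase-8 to the receptor. In mammals the genes for Puma and Bax are textbook targets of the DNA damage response.

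All values are probe set intensities, and the median intensity of an array lay between 133 and 154. The deposited intensities are printed for each array. Differences and tests are on log2(intensity + 16) after quantile normalization, morphant minus control, from limma fitted over all probe sets with Benjamini-Hochberg adjustment and a threshold of 0.05. The added 16 shrinks the differences of dim probe sets. In that fit 2.59% of all probe sets passed as higher in morphants and 3.12% as lower, and the median difference over all of them was −0.0014. The share of all probe sets with an unadjusted p under 0.05 was not counted. Counts of such p-values, here and below, are therefore not read as an excess. Morphant and control samples share replicate numbers. These were taken as pairs only because same-numbered arrays deviated together in these data. With the number as a block 8.82% were higher and 9.83% lower. Since 0 probe sets bear the symbol of an ovo gene, the Ovo1 transcript itself was not checked. Among markers of the labelled tissue, the periderm keratin krt4 was bright, at a mean intensity of 12802 in morphants and 12397 in controls. Tbxta of the notochord stood at 1074 in morphants and 1101 in controls. Sox17 of the endoderm was dim, at 43.0 in morphants and 37.35 in controls. Of 10 such tissue markers 1 was lower, the neural gene sox2 (−0.41 ± 0.10, adjusted p = 0.0472), and 0 were higher (limma, 2 with an unadjusted p under 0.05). In the blocked fit 3 of the 10 were lower, sox2, the tailbud gene cdx4 and sox10 (adjusted p = 0.00800, 0.00644 and 0.0479). In fits without the block the sox2 call ended without each array in turn except morphant replicate 1 (adjusted p from 0.0826 to 0.197). It also ended with the deposited values, median centring, a pseudocount of 1 and eBayes without trend (adjusted p from 0.0512 to 0.102).

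Of the 13 probe sets chosen by name, 2 were higher and 0 lower, and those 2 both belong to bcl2l13. Without the adjustment 4 had a p under 0.05 (limma), a count with no share of all probe sets beside it. With the replicate block the same 2 were higher, and 2 were lower, those of casp2 and casp8ap2. The block called 18.6% of all probe sets in either direction, against 5.72% without it. The median log2 difference of the 13 was 0.033. In 6 of the 13 the normalized morphant values did not overlap the control values, against 26% of all probe sets. Those of bcl2l13 and the brighter one of caspb lay above, and casp2, casp8ap2 and mcl1a below. Large differences were seen in the 3 listed genes alone, at 3.33 for casp8, 2.81 for bbc3 and 1.04 for baxa, and that is what they were listed for.

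**Figure D1:**
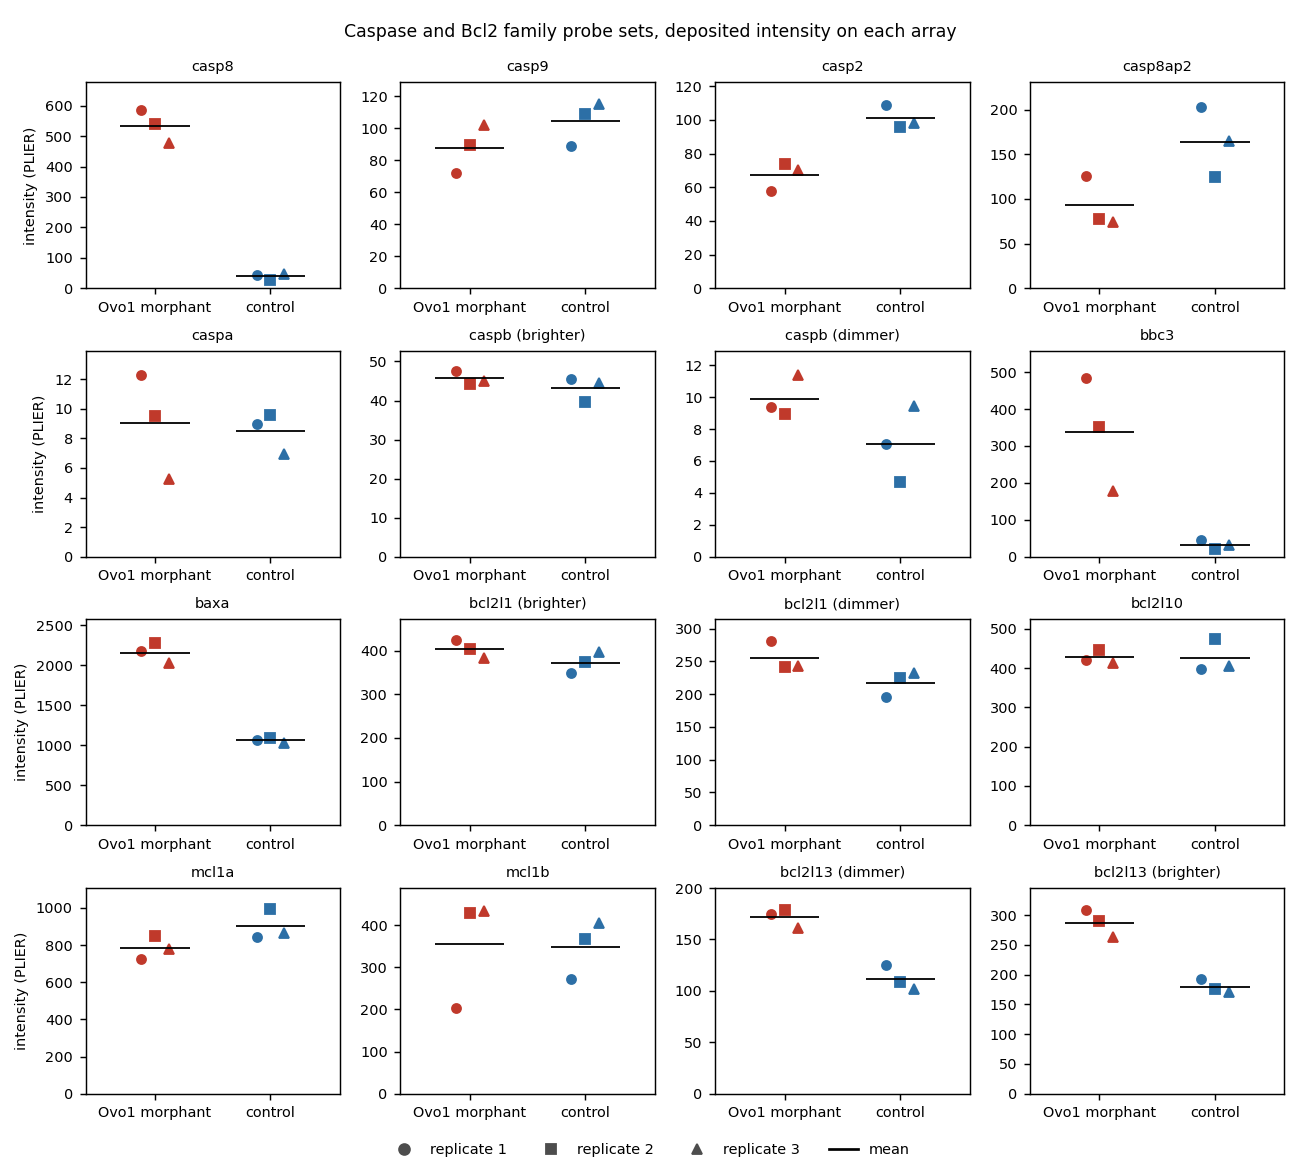
Deposited intensity (vertical axis, linear from 0, a scale of its own for each panel) of the 16 probe sets on the 3 Ovo1 morphant arrays (left in each panel) and the 3 control arrays (right). Symbols mark the replicate number and lines the group means. The casp8 points lie between 478 and 587 in morphants and between 28.3 and 48.0 in controls, while those of bcl2l10 overlap.

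Of the initiator caspases, casp8 was listed for its known rise, so its contrast with casp9 and casp2 is not a result. The casp8 probe set read 587, 539 and 478 in morphants 1 to 3, against 43.8, 28.3 and 48.0 in controls 1 to 3. Each morphant lay far above each control. The mean intensity was 535 ± 54.5 in morphants and 40.0 ± 10.4 in controls (SD, n = 3 each), and the log2 difference was 3.33 ± 0.16 (SE), a 10.1-fold difference on the scale used. In controls the probe set lay at the dim end of the array, on average at the 26.0th percentile, where the pseudocount weighs on the size. With a pseudocount of 1 the log2 difference was 3.76, and with one of 64 it was 2.54. RNA of whole embryos cannot tell a higher level per cell from a larger number of expressing cells, here or in any result that follows.

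Casp9, the initiator caspase of the mitochondrial route, read 71.9, 89.4 and 102 in morphants, against 89.1, 109 and 115 in controls. The groups overlapped, since the highest morphant exceeded the lowest control. The log2 difference of casp9 was −0.21 ± 0.15, with a 95% interval from −0.56 to 0.13, and it did not pass the test (limma adjusted p = 0.487).

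Casp2, an initiator caspase known for its part in the response to DNA damage and to errors in cell division, read 58.1, 73.8 and 70.5 in morphants, against 109, 96.1 and 98.2 in controls. All 3 morphants lay below all 3 controls. The log2 difference was −0.48 ± 0.13 and missed the threshold (limma adjusted p = 0.0650, interval from −0.77 to −0.19). With the replicate block casp2 was lower (limma adjusted p = 0.0196). Its probe set suffix, a_at, marks probes that match several transcripts of the one gene, so isoforms of casp2 are not told apart.

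The symbol of casp8ap2 falls under the name rule, but its product, also called FLASH, is no caspase. It binds caspase-8 and is known for its role in the processing of histone mRNA and in S phase. Casp8ap2 read 126, 78.0 and 74.1 in morphants, against 203, 125 and 165 in controls. The arrays numbered 1 were the highest of both groups, and the intensity of morphant 1 was just above that of control 2, though the normalized groups did not overlap. Within the numbers, the log2 difference was −0.56, −0.67 and −0.93 in pairs 1 to 3. The fitted difference of −0.72 ± 0.22 did not pass (limma adjusted p = 0.101). With the block on replicate number casp8ap2 was lower (limma adjusted p = 0.00313). Among fits without the block that left out 1 array, only that without morphant replicate 1 called it, at −0.96 (adjusted p = 0.0102). That fit also called more probe sets over the whole array, 830 higher and 883 lower. In the other such fits casp8ap2 did not pass (adjusted p up to 0.289), and its log2 difference was as small as −0.57. The sign of casp8ap2 is opposite to that of casp8, but the rise of casp8 was the reason for its choice. The opposite signs are therefore not read as a contrast.

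The zebrafish caspases caspa and caspb carry a pyrin domain and are known as the caspase-1-like enzymes of the inflammasome. Caspa read 12.3, 9.50 and 5.22 in morphants, against 8.99, 9.55 and 6.96 in controls. These intensities lie on average at the 5.95th percentile of the array in morphants and the 5.43rd in controls, so the probe set carries little signal over the dimmest features. The difference of caspa was 0.03 ± 0.11 on the log2 scale (limma adjusted p = 0.938, interval from −0.23 to 0.28).

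For caspb, the brighter probe set read 47.6, 44.3 and 45.1 in morphants, against 45.5, 39.7 and 44.6 in controls. The log2 difference of this probe set was 0.07 ± 0.10 (limma adjusted p = 0.793, interval from −0.17 to 0.30). The dimmer one read 9.35, 8.95 and 11.4 in morphants, against 7.06, 4.66 and 9.42 in controls, with a log2 difference of 0.18 ± 0.10 (adjusted p = 0.361). Neither probe set of caspb passed the test, in either fit, though the normalized morphant values of the brighter one lay just above those of the controls. Pycard, the adaptor that recruits these caspases, stood at −0.27 ± 0.19 (adjusted p = 0.480), and the gasdermin gene gsdmeb at −0.17 ± 0.15 (0.587). Of 8 markers of leukocytes, the cells in which caspa is known to act, 1 was lower in morphants, the actin-bundling gene lcp1 (−1.25 ± 0.23, adjusted p = 0.0187), and 0 were higher. Over all probe sets 3.12% passed as lower. The summed intensity of the 8 ran from 2087 to 2596 in morphants and from 3080 to 3794 in controls. Without lcp1 that of the other 7 ran from 1288 to 1831 in morphants and from 1436 to 1846 in controls, which overlap, and none of the 7 passed (adjusted p of at least 0.594). Most of that sum was cebpa, which ran from 1115 to 1600 in morphants and from 1215 to 1590 in controls. Csf1ra, marco, mpx, spi1b and lyz were dim, with group means from 13.6 to 41.0, so their lack of a call says little. The lcp1 call ended without control replicate 1 or control replicate 2 (adjusted p = 0.0567 and 0.0891). Which cells gave the lcp1 and cebpa signals was not tested, nor whether leukocyte number bears on caspa or caspb.

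Bbc3, whose product Puma is a BH3-only activator of apoptosis, read 484, 350 and 177 in morphants, against 44.8, 19.7 and 32.7 in controls. Every morphant lay above every control, but the morphants spread widely, with replicate 3 at the low end. The means were 337 ± 154 in morphants and 32.4 ± 12.6 in controls (SD, n = 3 each). The log2 difference was 2.81 ± 0.34, and within the replicate numbers it was 3.15, 3.30 and 1.97. It was 3.204 without morphant replicate 3 and 2.48 without morphant replicate 1. With a pseudocount of 1 it was 3.31, and with one of 64 it was 1.995. The SE of bbc3 is the widest of the 16 probe sets.

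Baxa, the pore-forming Bax, read 2175, 2278 and 2022 in morphants, against 1066, 1087 and 1030 in controls. The arrays of each group lay close together and far from those of the other. The mean of baxa was 2158 ± 129 in morphants and 1061 ± 28.9 in controls (SD, n = 3 each), and the log2 difference was 1.04 ± 0.08, which is 2.06-fold. This probe set is bright, and the difference moved little with the pseudocount, to 1.05 with 1 and 1.01 with 64. The 3 within-number differences of baxa were 1.08, 1.01 and 1.04.

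Of the protective members, bcl2l1, bcl2l10, mcl1a and mcl1b were measured, and none of them passed the test in either fit. Bcl2l1, the zebrafish Bcl-xL, has a pair of probe sets. The brighter read 425, 404 and 384 in morphants, against 348, 374 and 397 in controls, and the groups overlapped. On the log2 scale the difference was 0.13 ± 0.11 (limma adjusted p = 0.578, interval from −0.12 to 0.39). The dimmer read 281, 242 and 243 in morphants, against 195, 225 and 233 in controls. Here the log2 difference was 0.22 ± 0.14 (adjusted p = 0.434, interval from −0.10 to 0.53). In both, the arrays numbered 1 gave the largest within-number difference, at 0.36 and 0.58, and the others lay between −0.02 and 0.09.

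Bcl2l10, known in zebrafish as Nrz for its role in calcium release in the yolk cell layer, read 422, 446 and 414 in morphants, against 398, 473 and 406 in controls. The groups overlapped and the log2 difference was 0.03 ± 0.12 (limma adjusted p = 0.925, interval from −0.24 to 0.30). Mcl1a read 725, 847 and 779 in morphants, against 842, 994 and 865 in controls. Its log2 difference was −0.17 ± 0.10 (adjusted p = 0.403, interval from −0.40 to 0.06), and it was negative within each of the 3 replicate numbers.

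Mcl1b, the other copy of the short-lived protector Mcl1, read 203, 428 and 433 in morphants, against 272, 366 and 405 in controls. The arrays numbered 1 were the lowest of both groups, and the within-number differences, −0.32, 0.11 and 0.16, had opposite signs. The fitted difference of −0.02 ± 0.25 carries a wide interval, from −0.60 to 0.56 (limma adjusted p = 0.983), and without morphant replicate 1 it was 0.30. With the replicate block the interval narrows to between −0.27 and 0.24, and mcl1b did not pass there either (adjusted p = 0.942).

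Bcl2l13, a Bcl2 family protein of the outer mitochondrial membrane known in mammals as a receptor for mitophagy, was higher in morphants with both of its probe sets. The brighter read 308, 290 and 263 in morphants, against 192, 176 and 170 in controls. The dimmer read 175, 178 and 161 in morphants, against 125, 108 and 102 in controls. In neither did the groups overlap. The log2 differences were 0.63 ± 0.13 (1.54-fold, limma adjusted p = 0.0313) and 0.56 ± 0.14 (1.47-fold, adjusted p = 0.0499), and with the replicate block the adjusted p was 0.00294 and 0.00583. The 2 probe sets measure 1 gene on the same arrays and are not independent. The call of the brighter ended without morphant replicate 2 or any 1 of the 3 controls (adjusted p from 0.0626 to 0.151), and that of the dimmer without any 1 of the 6 arrays (adjusted p from 0.0566 to 0.207), in fits without the block. The log2 difference stayed between 0.54 and 0.71 for the brighter and between 0.46 and 0.63 for the dimmer.

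**Figure D2:**
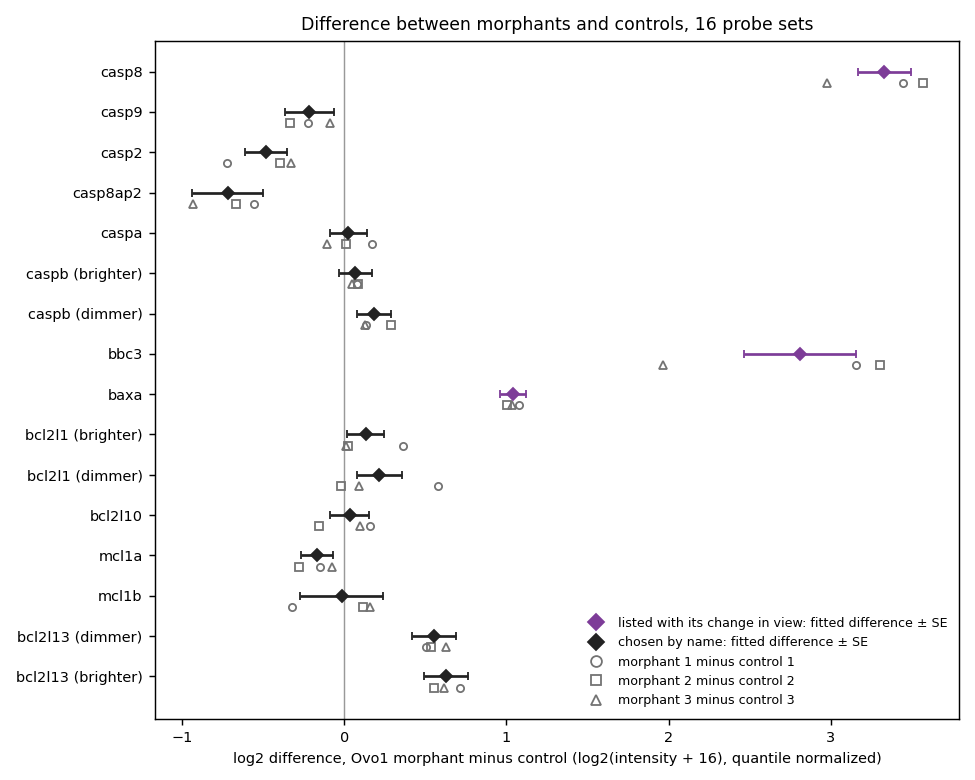
Log2 difference, Ovo1 morphant minus control, for the 16 probe sets (horizontal axis, log2(intensity + 16) after quantile normalization). Diamonds with bars give the fitted difference ± SE, purple for the 3 listed genes and black for those chosen by name. Open symbols give the difference within each replicate number. Casp8, bbc3 and baxa lie at 3.33, 2.81 and 1.04, and the others between −0.72 and 0.63.

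The genes whose profile over the 6 arrays lay closest to each of the 3 listed genes were found by the root mean square difference of log2 values, each gene centred on its own mean, among 8792 other named genes. Nearest to casp8 were foxo3b at 0.11, mdm2 at 0.21 and lnx1 at 0.22. Foxo3b, a forkhead transcription factor, read 1978, 1820 and 1432 in morphants, against 203, 139 and 207 in controls. Mdm2 and lnx1 both encode ubiquitin ligases, and their differences were 2.94 ± 0.11 and 3.04 ± 0.14.

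Nearest to bbc3 were bmb at 0.29, foxo3b at 0.35 and the AP-1 gene fosab at 0.36. These distances are larger than those around casp8, but they are not scaled to a gene's own spread. That spread was wider in bbc3 (SE 0.34) than in casp8 (SE 0.16), so closeness to the 2 genes was not compared. Bmb, known as brambleberry for nuclear membrane fusion in early embryos, read 721, 691 and 519 in morphants, against 97.1, 63.1 and 83.6 in controls. In bmb, fosab and foxo3b, as in bbc3, morphant 3 was the lowest of the morphants. Likeness to bbc3 over these arrays is what they were picked for, and morphant 3 was also the lowest in casp8 and baxa.

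Nearest to baxa were nck1b at 0.052, bnip4 at 0.070 and rrn3 at 0.088. Bnip4, which is named as a Bcl2 interacting protein and lies outside the name rule, read 919, 868 and 885 in morphants, against 401, 420 and 442 in controls. Its log2 difference was 1.08 ± 0.10, beside 1.06 ± 0.07 for the adaptor nck1b and 0.91 ± 0.10 for rrn3, a factor of RNA polymerase I. These genes were found by their likeness on the same 6 arrays, so their differences are a description with no test.

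**Figure D3:**
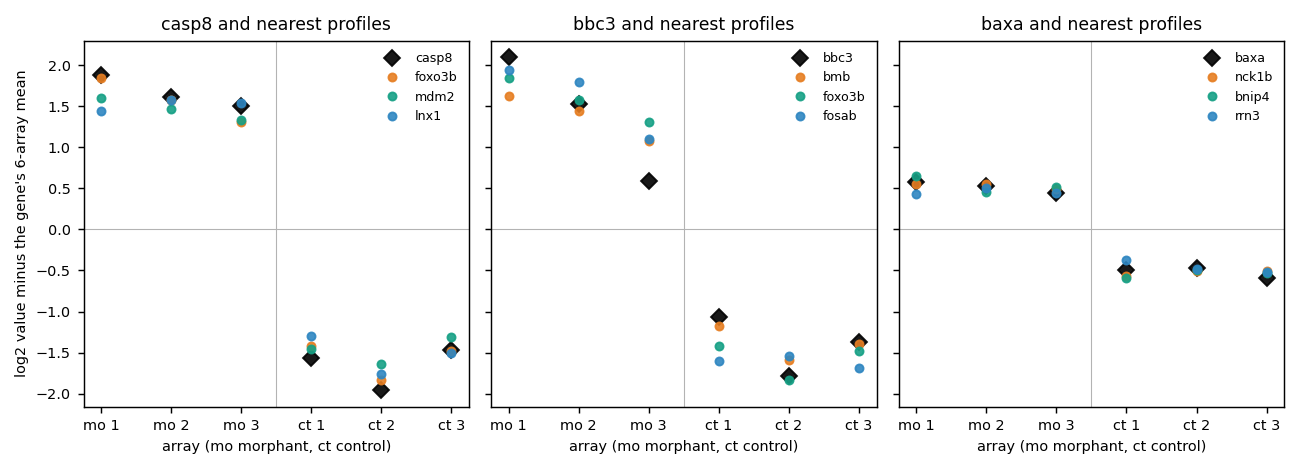
Log2 value minus the gene's own mean over the 6 arrays (vertical axis) on the 3 morphant (mo, left) and 3 control (ct, right) arrays, for casp8, bbc3 and baxa (black diamonds) and the 3 named genes nearest to each (circles). The root mean square differences are smallest in the baxa panel, from 0.052 to 0.088. They are not scaled to the size of the change, which is also smallest in baxa. Bbc3 on morphant 3 lies below its neighbours.

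Other genes of the apoptosis pathway were read from 7 lists with 53 measured genes. The lists were written with earlier results of these data known. Their counts and medians depend on that choice and describe the listed genes alone. In the fit without the block 1 of the 53 was higher and 0 lower, 1.89% in all, where 5.72% of all probe sets passed in either direction. Without the adjustment 12 had a p under 0.05 (limma), again with no share of all probe sets to set beside that count. The median log2 difference was 0.012, and 29 of the 53 lay above 0. With the replicate block 10 were higher and 2 lower, beside 8.82% of all probe sets higher, 9.83% lower and 18.6% in either direction. Where a gene had several probe sets the brightest was taken, and none of the 30 remaining probe sets of the listed genes, marker lists included, passed the limma test without the block (5 had an unadjusted p below 0.05). Under the replicate block 2 of those 30 were higher, the dimmer probe set of the death receptor gene hdr and the dimmest of tnfrsfa. Another 1 was lower, of sox2. That tnfrsfa probe set had a mean of 17.8 in morphants and 11.2 in controls. The remaining tnfrsfa probe set and the brighter one of hdr did not pass with the block (limma adjusted p = 0.127 and 0.370).

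Of 17 death receptor and adaptor genes, the called one was dedd1, which encodes a death effector domain protein. Dedd1 read 152, 170 and 180 in morphants, against 105, 67.4 and 69.0 in controls, and all morphants lay above all controls. Dedd1 had a log2 difference of 0.94 ± 0.16 (limma adjusted p = 0.0128). That call ended without morphant replicate 2, control replicate 2 or control replicate 3 (adjusted p = 0.0643, 0.0645 and 0.0682), and the adjusted p was 0.00244 with the block.

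Of the partners of caspase-8, the receptor fas (0.12 ± 0.14), the adaptor fadd (−0.09 ± 0.15) and the inhibitor cflara (−0.12 ± 0.11) passed in neither fit, with limma adjusted p of 0.726, 0.832 and 0.611. All 3 were dim, with mean intensities from 22.2 to 41.0 in morphants and from 26.1 to 44.3 in controls. With the block the receptor tnfrsfa (0.34 ± 0.12), the adaptor traf2a (0.37 ± 0.17) and the mitochondrial ribosomal gene dap3 (0.33 ± 0.10) were also higher (adjusted p = 0.0437, 0.0278 and 0.0213). Without the block, the fit that gave these SEs, they did not pass (limma adjusted p = 0.147, 0.267 and 0.111). Traf2a was dim too, at a mean of 36.8 in morphants and 25.5 in controls. Its other probe set stood at −0.05 and passed in neither fit (adjusted p = 0.893, and 0.764 with the block).

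Of 8 apoptosome and mitochondrial genes none passed without the block (limma, 4 with an unadjusted p under 0.05). Apaf1, the scaffold that activates caspase-9, read 253, 242 and 307 in morphants, against 196, 187 and 221 in controls, with no overlap. Its log2 difference was 0.38 ± 0.12 (adjusted p = 0.113, and 0.0272 with the block). The other probe set of apaf1, at 0.23 ± 0.13, passed in neither fit (adjusted p = 0.355, and 0.133 with the block). Apaf1 was also 1 of 3 higher with the block, beside aifm1 (0.37 ± 0.12) and aifm2 (0.35 ± 0.11). The other probe set of aifm1, at 0.35 ± 0.12, passed in neither fit (adjusted p = 0.148, and 0.0533 with the block). The cytochrome c gene cycsb stood at −0.02 ± 0.06 and diabloa, whose product frees caspases from their inhibitors, at −0.25 ± 0.13, and neither passed in either fit.

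Of 4 inhibitor of apoptosis genes none passed without the block (limma, 1 with an unadjusted p under 0.05). The mitotic gene birc5a, survivin, stood at 0.23 ± 0.08 and was higher with the block (adjusted p = 0.0423), and xiap, the direct caspase inhibitor, stood at 0.0056 ± 0.16, while birc2 stood at −0.10 ± 0.10. Of 9 listed Bcl2 family and BH3-related genes outside the name rule none passed without the block (limma, 2 with an unadjusted p under 0.05). Bnip4, found above by its likeness to baxa, was not on that list. Its log2 difference was 1.08 ± 0.10.

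Bik, a BH3-only gene, read 72.4, 106 and 90.4 in morphants, against 51.0, 67.1 and 53.9 in controls. The bik difference was 0.51 ± 0.17 (limma adjusted p = 0.118, and 0.00959 with the block). Badb, one of the copies of the BH3-only gene Bad, was lower with the block, at −0.37 ± 0.12 (adjusted p = 0.0259). The other probe set of badb, at −0.32 ± 0.12, passed in neither fit (adjusted p = 0.165, and 0.0642 with the block). The BH3-only genes bida (0.18 ± 0.12) and pmaip1 (0.06 ± 0.25), which encode Bid and Noxa, and the Bax-like bokb (0.20 ± 0.11) passed in neither fit. The log2 differences of the genes on this list lay between −0.37 and 0.51. Bbc3, at 2.81, was picked for its rise, and bnip4, at 1.08, was found by its likeness to baxa. Their larger values are therefore no contrast to the list.

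Of 3 Tmbim genes, relatives of Bax inhibitor 1, tmbim1a (0.32 ± 0.15) and tmbim4 (−0.29 ± 0.12) passed in neither fit and ghitm was higher with the block alone (0.34 ± 0.20, limma adjusted p = 0.378, and 0.0133 with the block). Another list held 10 genes of the execution phase and of proteins that caspases cleave, the lamins among them. In that list 2 genes lay above 0, and the list median was −0.17. The kinase gene pak2b, on the list as a cleaved substrate, was lower with the block (−0.21 ± 0.09, adjusted p = 0.220, and 0.0282 with the block). Dffa and dffb, which encode the inhibitor and the nuclease of the caspase-activated DNase, stood at −0.14 ± 0.15 and −0.22 ± 0.13 and passed in neither fit. Tnfrsfa, traf2a, apaf1, ghitm, fas, fadd, cflara, cycsb, diabloa, xiap, bida, pmaip1, bokb and dffa were named after their values were seen.

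**Figure D4:**
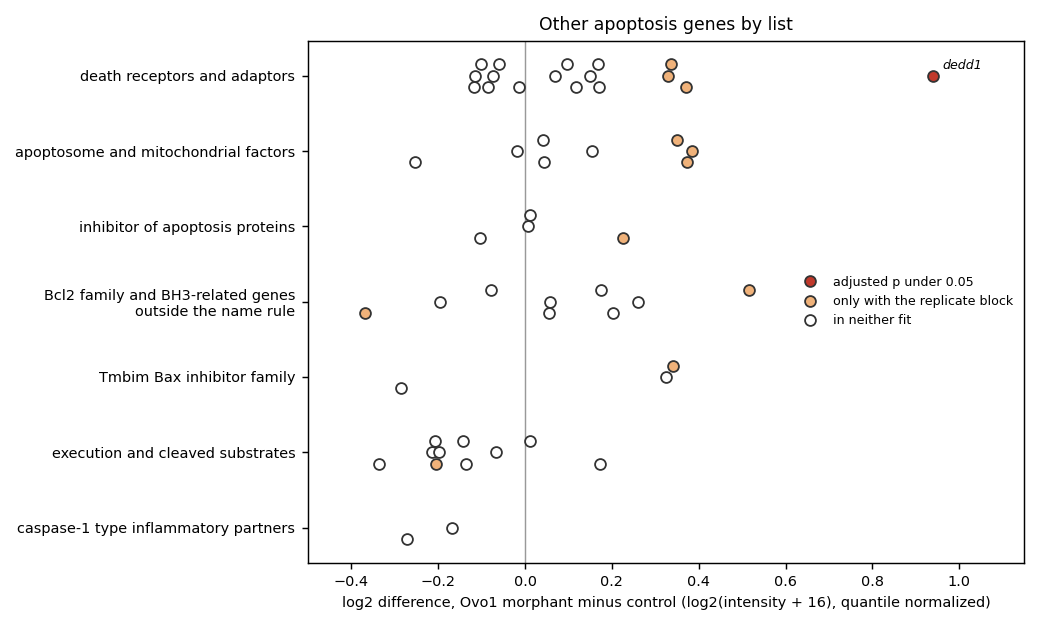
Log2 difference, Ovo1 morphant minus control (horizontal axis), of the 53 measured genes of 7 apoptosis lists, 1 circle per gene. Red marks an adjusted p under 0.05 (dedd1), orange the genes that passed with the replicate block alone, and white the others. The genes lie between −0.37 and 0.94, and the next highest after dedd1 is bik at 0.51. Bnip4 is on none of the lists and is not drawn.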

How the data were processed

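The deposited file gives, for each probe set on each array, a linear-scale intensity that the authors computed with PLIER (Affymetrix Expression Console 1.1) according to the submitters' processing notes. PLIER's background, normalization and offset settings are not stated. Labelled RNA started from 5 µg of total RNA.

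Of 15617 probe sets, 115 Affymetrix controls were left out. The arrays' log2 medians differed by up to 0.19, more than the limit of 0.1, so log2(intensity + 16) was quantile normalized. Groups, taken from the sample titles, were tested over 15502 probe sets by limma 3.58.1 (R 4.3.3; lmFit, and eBayes with trend), with no filter on low values. The pipeline was tested on simulated data. The number of arrays limits the precision.

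The platform's gene symbols were brought up to date with RefSeq by gene identifier (10795 probe sets with 1 symbol, 135 with several, which name no gene, and 4572 with none). Same-numbered arrays deviated together, with correlations across probe sets of 0.58, 0.46 and 0.54, so the numbers were taken to pair them. Members and lists were chosen with earlier results of these data known. All members, called list genes, the 2 list genes with the smallest p per list and the 3 nearest profiles per listed gene are named or counted. Figures were drawn with matplotlib 3.10.9.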

Additional observations from a re-analysis of the deposited data

How the results depend on the processing

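The log transform was changed to pseudocounts of 1 or 64, the scaling to median centring or to none, and eBayes to a fit without trend or with robust estimation. Dim probe sets were filtered out, probe sets of a gene averaged, the replicate block added, and each array left out in turn. Of the probe sets chosen by name, 1 was higher with median centring and with a pseudocount of 64, where the dimmer bcl2l13 probe set lost its call (adjusted p = 0.0507 and 0.0545). Without trend, 1 was lower, casp2 (adjusted p = 0.0478). With the replicate block 2 were lower, and it changed no other call among them. The block gave 1367 higher and 1524 lower over all probe sets, and 10 and 2 in the pathway lists. Leaving out 1 array gave 146 to 830 higher and 123 to 883 lower over all probe sets, 0 to 1 higher and 0 to 1 lower among those chosen by name, and 0 to 4 higher and 0 to 1 lower in the lists. The log2 difference then changed sign in caspa (−0.048 to 0.13), mcl1b (−0.19 to 0.30), bcl2l10 (−0.030 to 0.13), fadd (−0.19 to 0.033), cycsb (−0.057 to 0.023), xiap (−0.093 to 0.15) and pmaip1 (−0.24 to 0.30), none of them called; the cause was not tested. Casp8 stayed between 3.18 and 3.42, bbc3 between 2.48 and 3.204 and baxa between 1.01 and 1.08. The filter dropped 2 of the 16 probe sets, those of caspa and the dimmer of caspb. Low signal over background limits these 2, and the size of the casp8 and bbc3 differences.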
